A study of Drosophila melanogaster with 2 samples.

Results

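The genes that encode the proteins of the small subunit of the cytosolic ribosome were examined in a chromatin immunoprecipitation (ChIP-seq) study of Bigmax-GFP in Drosophila melanogaster. The members were chosen by name: every protein-coding gene whose symbol is RpS followed by a digit, plus stubarista (sta), which encodes the small-subunit protein known in other species as RPSA. This gave 39 genes among 13945 protein-coding genes on the 6 arms 2L, 2R, 3L, 3R, 4 and X. Both libraries came from whole embryos of mixed sex, 0 to 24 h old, of a transgenic line stably carrying Bigmax fused at its C terminus to GFP, and are biological replicates 3 and 4 of 1 group. No untagged, untreated or mutant group is among these samples, so conditions were not compared. The free text of both samples calls them input controls while the antibody label names Bigmax, and the lists were read as the Bigmax peak calls they were deposited as. In whole embryos, strong binding in few cells and weak binding in many cells cannot be told apart.

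Bigmax is the fly Mlx protein, a DNA-binding factor that acts as a dimer with Mondo in the response to sugar, and such dimers bind E-boxes such as CACGTG. The small ribosomal subunit decodes the messenger RNA. Its proteins are made in equal amounts in every growing cell, and loss of a single gene copy of many of them gives the Minute phenotype in flies, with slow growth and thin bristles. Ribosomal protein genes of flies and mammals start transcription in a pyrimidine-rich stretch, the TCT initiator, rather than at the more usual initiator.

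Peaks came from 4 lists. The authors' list of 1949 peaks that passed a threshold on the irreproducible discovery rate (IDR), here called reproducible peaks, had signals from 111 to 6951 with a median of 163, in units of the authors' peak caller. The relaxed lists of replicate 3, of replicate 4 and of both pooled held 30000 peaks each. Read depth is not in the lists, so no counting error can be attached to a signal, and signals are compared by rank between lists. A gene is called bound where a reproducible summit lay within 500 bp of any of its transcript starts.

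Bound members numbered 29 of 39, or 74.4%, against 11.2% of all protein-coding genes. The median signal of the bound members was 423, and that of all 1557 bound genes was 165. Within the 20 strongest reproducible peaks of the genome, 5 lay at members, and within the 100 strongest, 9 did. Among the 10 members that were not bound were RpS14a, RpS27A, RpS28a, RpS26, RpS15Ab, RpS10a, RpS28-like and RpS3A. Of the 10, 6 had a weaker summit in the pooled relaxed list, so that 35 of 39 members, 89.7%, had a pooled promoter summit, against 56.7% of all protein-coding genes.

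**Figure D1:**
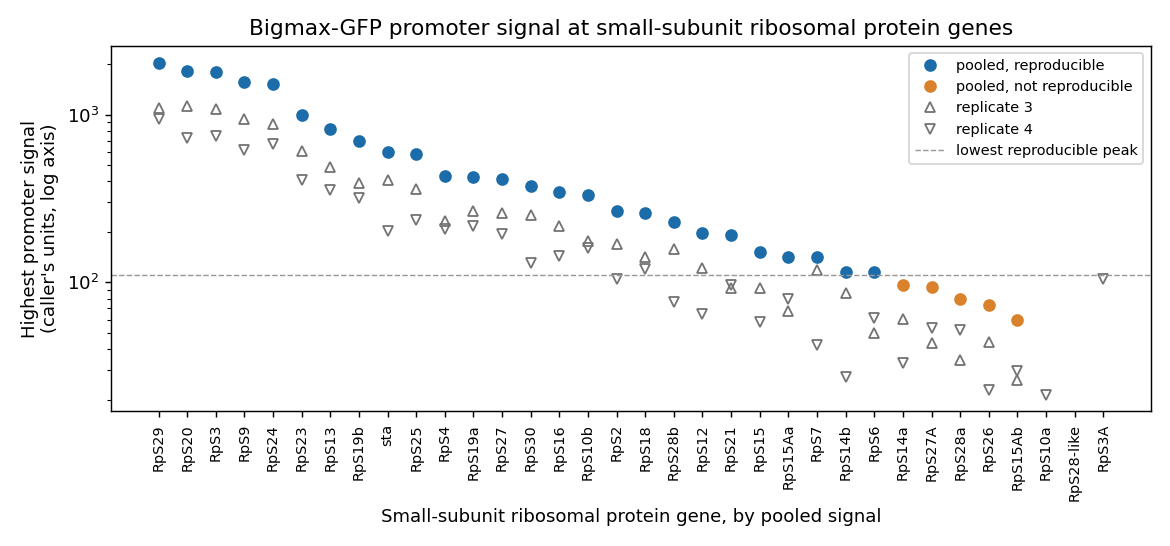
Highest signal of a summit within 500 bp of a start for the 34 members described by name (log axis, caller's units), in the pooled list (filled circles) and in the lists of replicate 3 (upward triangles) and replicate 4 (downward triangles). The pooled signal runs from 2048 at RpS29 to 59.7 at RpS15Ab, and RpS3A has a point in replicate 4 only.

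Sequence at the summits is shown first for members that differ in the 6-mer AGGTTA (reverse complement TAACCT), which was searched because earlier results of these data had pointed to it. Each line gives the 101 bp centred on the pooled summit, on the strand of the gene, from the Release 6 (dm6) assembly, with that 6-mer in either orientation and the E-box CACGTG in capitals. The windows are chr3R:23358941-23359041 (plus strand) for RpS3, chr3L:9511318-9511418 (minus) for RpS9, chr3R:20850932-20851032 (plus) for RpS30, chr3R:9778168-9778268 (plus) for RpS29 and chr3R:20822256-20822356 (plus) for RpS20. For sta, 30 bases near the summit that hold both 6-mers are given, at chrX:1482947-1482976 (minus).
RpS3: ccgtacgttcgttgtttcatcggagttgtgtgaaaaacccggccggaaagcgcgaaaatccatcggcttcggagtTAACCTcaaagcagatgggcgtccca
RpS9: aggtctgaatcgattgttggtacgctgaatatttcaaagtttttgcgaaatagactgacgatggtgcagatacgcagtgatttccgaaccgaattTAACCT
RpS30: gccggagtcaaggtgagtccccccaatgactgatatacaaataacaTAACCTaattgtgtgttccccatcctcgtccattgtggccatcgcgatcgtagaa
RpS29: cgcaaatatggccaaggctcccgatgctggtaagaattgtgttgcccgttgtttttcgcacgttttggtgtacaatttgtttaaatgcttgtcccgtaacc
RpS20: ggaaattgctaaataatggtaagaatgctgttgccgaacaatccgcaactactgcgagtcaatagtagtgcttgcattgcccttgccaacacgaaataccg
sta: cgCACGTGgagccccttctttgAGGTTAtg
RpS3, RpS9 and RpS30 carried TAACCT on the strand of the gene and sta carried AGGTTA, whereas the windows of RpS29 and RpS20, with higher signals than any of these, held neither.

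The second feature shown is the start site. The 30 bases from 15 before to 15 after an annotated start are given for bound members (RpS3, RpS25, RpS6) and for members that were not bound (RpS27A, RpS3A, RpS10a, RpS28a), again on the strand of the gene, with CTTTC and CTTTT beginning within 10 bp of the start in capitals. They lie at chr3R:23358797-23358826 (plus) for RpS3, chr3R:11216273-11216302 (minus) for RpS25, chrX:7901317-7901346 (minus) for RpS6, chr2L:10408337-10408366 (plus) for RpS27A, chr4:67193-67222 (minus) for RpS3A, chr3R:27652745-27652774 (plus) for RpS10a and chr3R:30022634-30022663 (minus) for RpS28a.
RpS3: gcgcgggcacactggcctCTTTCTTTTctg
RpS25: ggccgtttccgccctccatCTTTCtgcatt
RpS6: tacttcctcctatcggtCTTTTtcaaccct
RpS27A: cacgctgtgtgtgtgttCTTTCTTTCcttt
RpS3A: gtcgtcaacgtgattcgacCTTTTccggtt
RpS10a: gaagtttcggtaaatactaatttaagctgg
RpS28a: gcagcactcacagcttcaaattcaaatctt
Of all 39 members, 29 (74.4%) had CTTTC or CTTTT on the sense strand within 10 bp of a start, against 9.54% of all protein-coding genes. Large-subunit genes had it in 47 of 53 cases (88.7%). On the opposite strand the shares were 4 of 39 members (10.3%), 3.77% of large-subunit genes and 7.77% of all protein-coding genes. Bound members had the sense match in 23 of 29 cases and the others in 6 of 10, so that it occurred on both sides of the threshold. Among the bound members without it were RpS2, RpS12, RpS20, RpS19b and sta.

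Proteins of the head of the small subunit, the part that swings during translocation, were encoded by 19 members, of which 13 were bound, with signals from 151 to 2048 and a median of 423. RpS29, a small zinc-binding protein, had the highest signal among them, with 2048 in the pooled list, 1098 in replicate 3 and 944 in replicate 4. Its peak spanned 9777836 to 9778691 on 3R, with the summit in the first intron. RpS20 had 1817 in the pooled list, 1133 in replicate 3 and 724 in replicate 4, at 3R 20821755 to 20822658. RpS3, which lines the channel where messenger RNA enters and is a classical Minute gene, had 1805, 1081 and 745 in the same order, at 3R 23358601 to 23359287. All 3 ranked between 9 and 23 in each replicate list.

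The other bound head members were weaker. RpS19b had a pooled signal of 696, RpS25 of 581, RpS19a of 423, RpS16 of 348, RpS10b of 332 and RpS18 of 259.5. RpS28b had 229.8, RpS12, a protein needed in flies for Minute cells to be eliminated by cell competition, had 198, and RpS15 had 151. RpS27A, which is made as a fusion to ubiquitin, was below the threshold, with 93.4 in the pooled list, 43.3 in replicate 3 and 53.1 in replicate 4. Its pooled summit lay 34 bp upstream of its own start and equally 34 bp from the start of Ip259. Signals of bound head members thus differed by more than 10 times.

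Proteins of the body and platform were encoded by the other 20 members, of which 16 were bound, with signals from 115 upward and a median of 422. RpS9, a body protein next to the messenger RNA entry, had 1567 in the pooled list, 949 in replicate 3 and 613 in replicate 4, at 3L 9511018 to 9511680. RpS24 had 1517, 879 and 665 in the same order, at 2R 22640850 to 22641623. In each replicate list both ranked between 30 and 41, below the 3 head members above. RpS23, a protein of the decoding centre, had 995.

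Lower in the body group were RpS13 with a pooled signal of 825, sta with 600.5, RpS4 with 431, RpS27 with 414 and RpS30, made as a fusion to a ubiquitin-like protein, with 375. RpS2, known in flies as string of pearls for its ovary phenotype, had 268, and RpS21, whose loss overgrows the larval blood-forming organs, had 191. RpS15Aa and RpS7 each had 141. RpS6, the target of S6 kinase in growth signalling, and RpS14b, a platform protein, were the weakest bound members, at rank 1825 and rank 1832 of 1949, each with 115. The nearest member below the threshold was RpS14a, with 96.4 at rank 2601 of the pooled list, followed by RpS27A at rank 2775. RpS26, a protein of the messenger RNA exit, had 73.5 in the pooled list, 43.9 in replicate 3 and 22.8 in replicate 4.

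Of the 4 members without any pooled promoter summit, RpS3A differed from the others. RpS3A, a body protein encoded on chromosome 4, had a summit of signal 105 in replicate 4, at rank 583 of that list and 37 bp downstream of the start. In replicate 3 the nearest summit lay 23317 bp away, and in the pooled list 1528 bp upstream of the start, with a signal of 54.3. Chromosome 4 held 145 peaks of replicate 4, 78 of replicate 3 and 70 of the pooled list. Whether RpS3A is bound thus rests on which library is read, and the reason was not tested. RpS10a had only a replicate 4 summit of 21.4 at rank 12210, 338 bp upstream. RpS28-like had none in any list, and its nearest pooled summit lay 599 bp downstream, with a signal of 58.6.

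Paralogue pairs with the same protein number numbered 6, and in 5 of them only 1 gene was bound. RpS10b had a pooled signal of 332, with 177 in replicate 3 and 160.3 in replicate 4, while RpS10a had the replicate 4 summit of 21.4 alone. RpS28b had 229.8, 158 and 76.2, and RpS28a had 80.1, 34.5 and 52.2. With a window of 1000 bp in place of 500 bp RpS28a also counted as bound, which left 4 pairs with 1 bound gene. The bound genes of both pairs lie on X and their partners on 3R.

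Other pairs differed less or in the other way. RpS15Aa had 141, 67.1 and 79.1, and RpS15Ab had 59.7, 26.2 and 29.8, so that the pooled signal of RpS15Aa was 2.36 times as high. RpS14a and RpS14b are tandem copies on X. RpS14b had 115, 86.6 and 27.3 and RpS14a had 96.4, 60.7 and 33, and their order turned between replicates: RpS14b was higher in replicate 3 and RpS14a in replicate 4. The threshold fell between them although the pooled signals differed by a factor of 1.19. For RpS19, both genes were bound, RpS19a with 423, 267 and 218 and RpS19b with 696, 389 and 319. RpS19b, known for germline expression, was the only autosomal gene of a pair to exceed its X-linked partner. Its summit lay 280 bp upstream of its start but 102 bp from the start of the neighbouring gene CG5854, and with each summit given to the nearest start RpS19b was no longer bound. Members outside these pairs were bound in 22 of 27 cases and genes within pairs in 7 of 12. That difference was not tested.

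**Figure D2:**
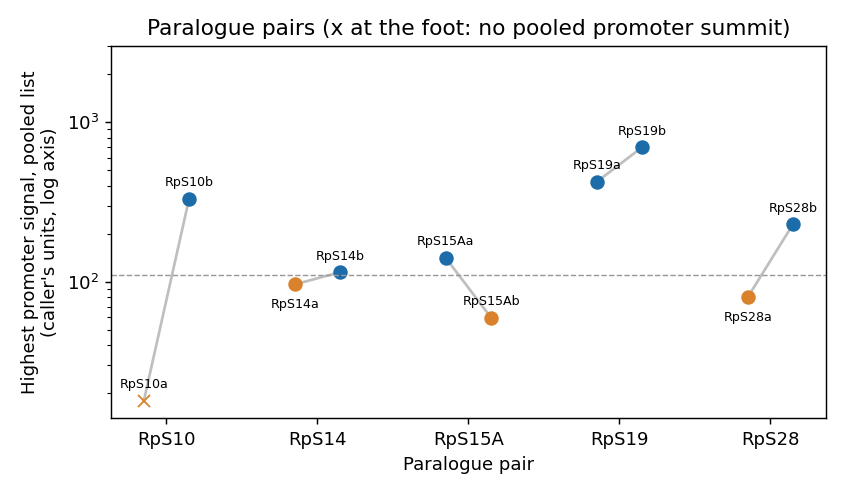
Highest pooled promoter signal (log axis, caller's units) of both genes of the 5 paralogue pairs described by name. Filled blue circles are bound genes, orange circles are genes with a weaker pooled summit, and a cross at the foot marks a gene with none; the dashed line is the weakest reproducible peak, at 111. In the RpS10 pair the partner has no pooled summit, and in the RpS14 pair both genes lie near the line.

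Reads from copies of a sequence cannot be placed uniquely, so the 500 bp around each member's first start was searched for 50-base stretches that occur elsewhere on the 6 arms. In 38 members there were none, the RpS14 copies included. RpS15Ab had 34 of 452, or 7.52%. The read length is not given in the sources used here, so shorter reads could match more often.

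Summits of most of the strong members lay inside the genes. Over the 29 bound members the median summit was 38 bp downstream of the nearest start, while over all 1557 bound genes it was 46 bp upstream (a value of -46). The strongest summits of those 1557 genes lay at 1171 distinct positions, as 1 summit could belong to several genes. A shared summit thus enters the values of all bound genes more than once, and the effect of this was not tested. The members' median was 65.5 bp in the 1949 strongest peaks of replicate 3 alone, and 43 bp in the 1949 strongest of replicate 4 alone. In the 974 strongest reproducible peaks it was 59.5 bp. The summit was over 100 bp downstream in 11 members, 37.9%, against 12.7% of all bound genes, and within 50 bp of a start in 13, 44.8%, against 32.9%. Bound large-subunit genes had a median of -1.5 bp, with 12.5% over 100 bp downstream and 72.5% within 50 bp of a start. None of these differences was tested, since the genes compared were chosen with the data known.

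Position and strength went together among the members. Of the 10 strongest, 8 had the summit over 100 bp downstream, among them RpS29 at 121, RpS20 at 125, RpS24 at 169, RpS3 at 179, RpS23 at 294 and RpS13 at 386 bp. An exception was RpS9, at -63 bp from its nearest start, with another start farther upstream. Of the 10 strongest, 1 other member was an exception too, with its summit within 50 bp of a start. Among the other 19 bound members, 3 were over 100 bp downstream, namely RpS30 at 148, RpS16 at 195 and RpS2 at 286, and 12 were within 50 bp of a start. The median offsets were 124 bp for the 10 strongest and 15 bp for the other 19.

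Most of those downstream summits fell in introns. In 9 of the 29 bound members, 31%, the summit lay in an intron of every annotated transcript, against 5.39% of all bound genes and 5 of 40 bound large-subunit genes. Among these were RpS29, RpS20, RpS3, RpS24, RpS23 and RpS25, in intron 1, RpS30, in intron 1 or 2, and RpS16, in intron 2 or 3, depending on the transcript. Their median signal was 1517, with a range from 348 to 2048, and that of the other 20 bound members was 300. Those 20 ran from 115 to above the highest of the 9, so the groups overlapped over the whole range of the intronic summits. RpS13 was the only bound member with its summit in a coding exon. A second reproducible summit lay within 500 bp of a start in 8 members. At RpS23 it lay 92 bp downstream with a signal of 523, at RpS13 184 bp downstream with 298, at sta 108 bp downstream with 306 and at RpS19a 181 bp downstream with 282. RpS2 had it 83 bp downstream with 199.6 and RpS20 325 bp downstream with 136. At RpS24 and RpS25 the second summit lay upstream instead, at -38 bp with a signal of 236 and at -121 bp with 159.

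**Figure D3:**
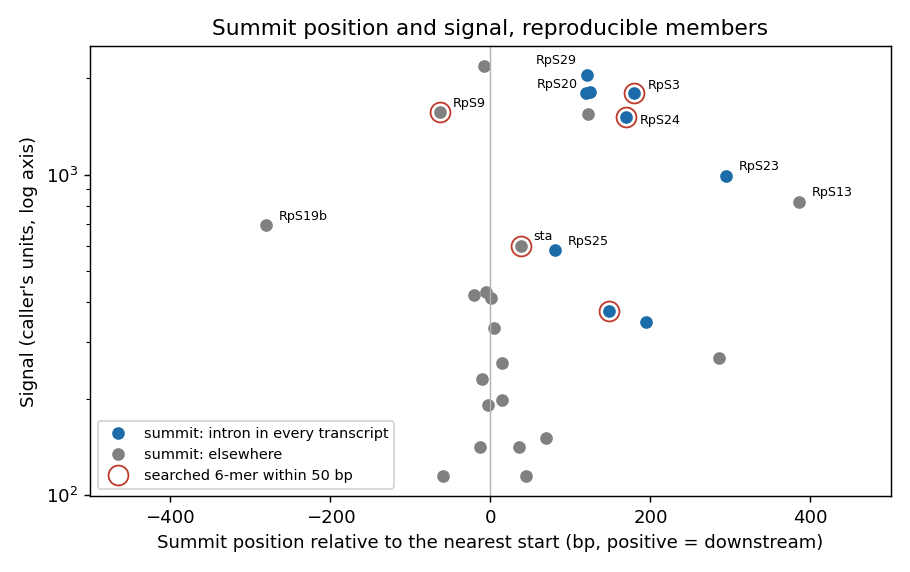
Position of the strongest reproducible summit relative to the nearest start (bp, positive downstream on the strand of the gene) against signal (log axis, caller's units) for the 29 bound members. Blue points are summits within an intron of every transcript, grey points the others, and red rings mark AGGTTA within 50 bp; 8 of the 10 strongest points lie over 100 bp downstream, and most weak ones sit at the start.

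A summit near a member can also lie near another gene. This was so for 8 of the 29 bound members, among them RpS20 (with CG17271), RpS19b (CG5854), sta (inc), RpS25 (CG4820), RpS27 (Nup37), RpS18 (plu) and RpS21 (CG3104). Except for RpS19b, the member's own start was the nearer. Among members below the threshold, the pooled summits of RpS28a, 39 bp from the start of Axn, and of RpS15Ab, 137 bp from that of Lsm10, lay nearer to the neighbour.

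Members that host small nucleolar RNA genes, which guide modification of ribosomal RNA and are cut out of introns, numbered 13 of 39, against 0.602% of all protein-coding genes. Among them were RpS12, RpS16, RpS20, RpS29, RpS3A, RpS4, RpS6, RpS7, RpS9 and sta. All but RpS3A were bound, which makes 12 of the 29 bound members and 1 of the 10 others. The median pooled signal of the bound hosts was 1073 and that of the other bound members 375, but among the hosts were both RpS29 with 2048 and RpS6 with 115. Among the 71 host genes outside the small subunit, 33 were bound, while 11.2% of all protein-coding genes were. Large-subunit hosts, which are part of those 71, were bound in 12 of 16 cases, and large-subunit genes as a whole in 40 of 53. Being a host and encoding a ribosomal protein thus overlap in these counts. No test was made of these counts.

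By arm, 3R held 12 members, 9 of them bound with a median of 696, and 2R held 7, with 6 bound and a median of 672. X held 9, with 8 bound and a median of 281. On 3L 3 of 4 were bound, with a median of 431, and on 2L 3 of 6, with a median of 268. The single member on chromosome 4, RpS3A, was not bound. Over the 6 arms together 11.2% of protein-coding genes were bound. Shares of all genes by arm are not given here, so these counts do not set the arms apart. The medians of 3L and 2L rest on 3 genes each.

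The share of members with AGGTTA at the summit was near that of all bound genes. It lay within 50 bp of the summit at RpS3, RpS9, RpS24, RpS30 and sta, 5 of 29 or 17.2%, against 15.2% of all bound genes. Within 100 bp it was found at 10 of 29 members, 34.5%, against 21.9%, RpS13, RpS23, RpS16 and RpS2 being among those added. Of the 10 strongest members 6 had it within 100 bp, and RpS29 and RpS20 had it nowhere within 500 bp. The 5 members with it within 50 bp had a median of 1517, and the 24 others one of 381. Because the 6-mer was picked from these same data, this difference is a description only and was not tested.

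The E-box CACGTG lay within 50 bp of the summit at RpS24, sta and RpS16, 3 of 29 bound members or 10.3%, against 2.63% of all bound genes. Within 100 bp it was found at 7 members, 24.1%, against 6.1%, the added ones being RpS2, RpS4, RpS20 and RpS28b. In large-subunit genes the shares were 12.5% and 27.5%. RpS24, sta, RpS16 and RpS2 had both 6-mers within 100 bp. Only 2 of the 7, RpS24 and RpS20, were among the 10 strongest members, and RpS28b was among the weaker ones. From 100 bp before to 50 bp after a start, CACGTG was present at 2 of 39 members, 5.13%. The shares there were 3.08% of all protein-coding genes and 22.6% of large-subunit genes. A match to these letters is not by itself a binding site, and the counts were not tested.

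Longer promoter elements were searched on both strands from 100 bp before to 50 bp after each start. TATCGATA, the DNA replication-related element of housekeeping promoters, was present at 13 of 39 members, 33.3%, against 8.33% of all protein-coding genes, and at 11 of the 29 bound members. Large-subunit genes had it in 26.4%. GGTCACACT, the core promoter Motif 1, was present at 4 of 39, 10.3%, against 5.82% of all protein-coding genes and 9.43% of large-subunit genes. Neither was found within 50 bp of a summit of a bound member, where all bound genes had 5.78% and 3.79%. Within 100 bp of the summit TATCGATA was present at 4 of 29 bound members, 13.8%, against 10% of all bound genes, and GGTCACACT at 1, 3.45%, against 7.9%.

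The replicates ranked the members alike. A promoter summit was present at 35 members in the replicate 3 list, against 54.7% of all protein-coding genes, at 37 in the replicate 4 list, against 55.1%, and at 35 in both, against 45.4%. Across these 35 genes the Spearman correlation of signal was 0.959, and across all genes with a summit in both lists 0.688. It was 0.906 across large-subunit genes and 0.934 across mitochondrial small-subunit genes, so a high value is not particular to the members. The median replicate 3 signal was 218 at members and 36.2 over all genes with a summit in that list. The correlation is a description, and genes of the same libraries are not independent. Of the 29 bound members, 28 were at promoters among the 1949 strongest peaks of replicate 3, 27 of replicate 4 and 26 of both. The exceptions were RpS6, at rank 3336 in replicate 3 and 1548 in replicate 4, RpS7, at 643 and 3368, and RpS14b, at 1149 and 7821. The strongest summit of a bound member moved by a median of 23 bp between replicates, with a range from 1 bp at RpS21 to 149 bp at RpS2, and by at most 50 bp at 23 members.

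**Figure D4:**
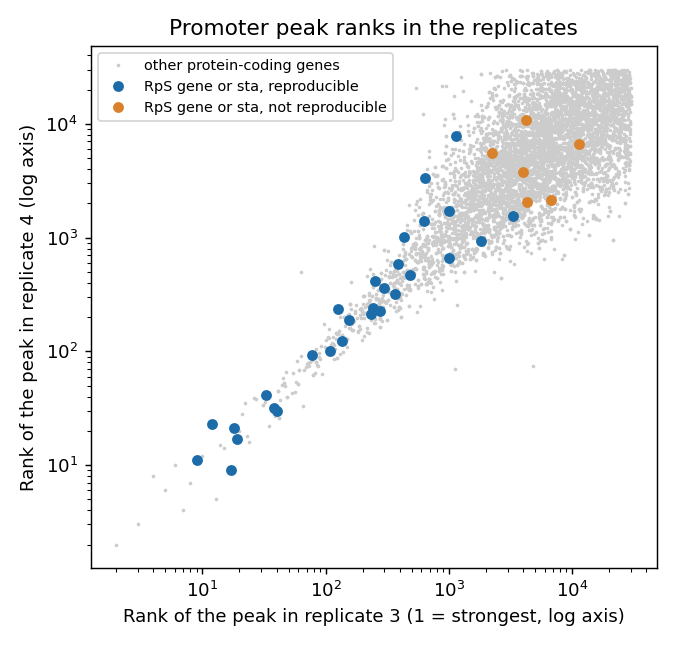
Rank of the strongest promoter peak of each gene in the replicate 3 list (horizontal) and the replicate 4 list (vertical), both on log axes, with 1 the strongest. Most bound members in blue follow the diagonal from ranks near 10 to ranks near 1000, and the weakest reach ranks beyond 1000 in a replicate. Members below the threshold in orange lie among the bulk of other protein-coding genes in grey. RpS14b, at ranks 1149 and 7821, is the blue point farthest above the diagonal.

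Other genes of the ribosome were set beside the members by counts. Large-subunit genes were bound at 40 of 53, 75.5%, close to the 74.4% of the small subunit, with a median signal of the bound genes of 270.1 against 423. Their highest signals were 1766 at RpL40 and 1598 at RpL3, below the 5 strongest small-subunit genes. Mitochondrial small-subunit genes were bound at 8 of 26, 30.8%, led by mRpS30 with 1093 and mRpS23 with 494. Of 7 genes for partners and assembly factors of the small subunit, 3 were bound, 42.9%. The share over all protein-coding genes was 11.2%. Bound were Rack1, a scaffold protein on the head, with 194, and the assembly kinase RIOK2 with 171. The last was RIOK1, a kinase of the same family named after its value was seen, with 111. That is the lowest signal among reproducible peaks, at rank 1940 of 1949. No test was made between these groups, which were chosen with the data known.

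**Figure D5:**
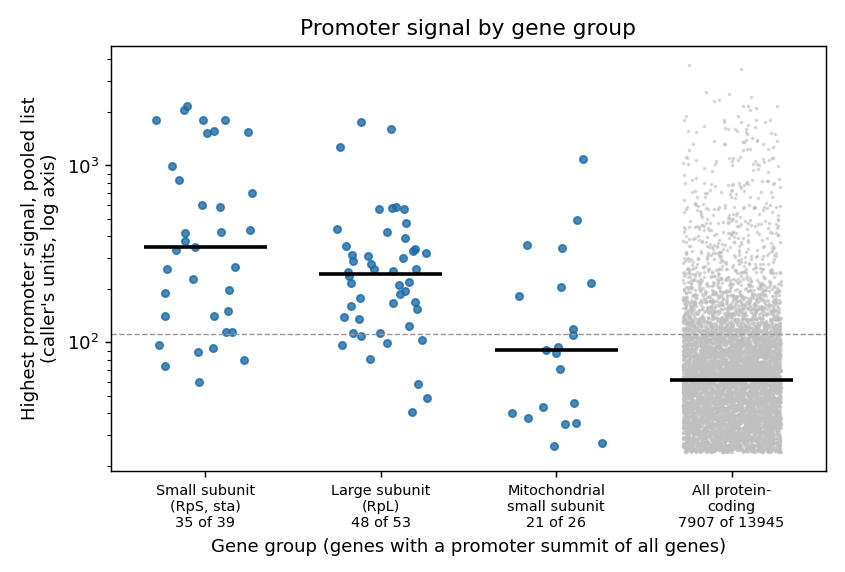
Highest pooled promoter signal per gene (log axis, caller's units) for small-subunit, large-subunit and mitochondrial small-subunit genes and for all protein-coding genes; black bars are medians over the genes with a pooled summit, whose number is given under each group. The medians are 348, 244, 90.7 and 61.2, and the dashed line marks the weakest reproducible peak, at 111.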

How the data were processed

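Per the deposited file notes, alignment was to dm6, and the authors called relaxed peaks on either replicate and on their pool, using a control alignment not analysed here, before an IDR threshold. Which caller they used is not given in the sources used here. The values are the authors' signal per peak and the deposited −log10 q-value, which was 3.64 for every reproducible peak and was not used to rank. The 1949 reproducible lines are the 1949 pooled lines of highest signal.

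Gene models were Ensembl release 115 (FlyBase 6.54), and sequence came from the RefSeq Release 6 assembly, of which dm6 is a copy. A summit belonged to a gene within 500 bp of any transcript start, and 1 summit could belong to several genes. Offsets run from the nearest start on the gene's strand. The assignment was tested on simulated peaks at genes with 1 start and no close neighbour. Genes with several starts or a near neighbour, as among the members, were not covered by that test. All steps used Python 3.11.15 with scipy 1.17.1. No tests were run: there is 1 group of 2 samples, and members, lists and motifs were chosen with earlier results of these data known. Named genes were the members, some of which are not reported here, neighbours within 500 bp of a summit and up to 2 genes of each other list by signal. Of 9 partner names, 2 matched no gene. Head and body assignments and the small nucleolar RNA and 50-base searches were added after seeing the data. Alternatives were other windows, the stronger part of the list, nearest-gene assignment and each replicate alone.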

Additional observations from a re-analysis of the deposited data

How the results depend on the processing

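Over 36 values under alternatives for 7 results, 30 stayed the same, 6 moved and 0 reversed. A value stayed the same within the replicate spread for medians and within 1.5 times for counts. For the rank correlation, which has no replicate spread, a set limit of 0.1 was used. Bound members ranged from 24, in the 974 strongest reproducible peaks, to 30, with a 1000 bp window. They numbered 28 in the 1949 strongest peaks of each replicate alone. Without replicate 3, RpS14b and RpS7 were lost and RpS3A was gained; without replicate 4, RpS6 was lost. The median pooled promoter signal of 348 became 131 without replicate 3 and 218 without replicate 4, where the scale is that of a single library and sizes cannot be compared. The median summit offset of 38 bp was 43 to 65.5 bp in the 1949 strongest peaks of each replicate alone. It was 59.5 bp in the 974 strongest reproducible peaks. Pairs with 1 bound gene numbered 3 in those 974 peaks against 5, because weak pairs dropped out altogether. AGGTTA within 100 in place of 50 bp was found at 10 members in place of 5, as a wider window must allow. No paired analysis was possible because the 2 samples form 1 group. Depth is unknown, so the weakest signals carry no error.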
